A study of Mus musculus with 15 samples.

Results

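The effect of losing *Esr1* on the liver RNA of adult males was measured by comparing 4 ESR1KO males, labelled MKO1 to MKO4, with 3 wild-type males, labelled MWT1 to MWT3. These were chosen by the genotype and sex in their labels and make up 7 of the 15 mice of the series. The other 8 are ESR1KO and wild-type females. They entered the fit, where they share in the estimate of the spread behind each call, and served to test whether an effect differed between the sexes and to find genes without a sex difference. All mice were 8 weeks old, carry the strain label B6N(Cg)-Esr1tm4.2Ksk/J and gave 1 RNA-seq library each. MKO mice are homozygous for a deletion of exon 3 of *Esr1* in every tissue, and the study describes raised testosterone in this line. Effects of ESR1 in the liver and effects of the changed hormones therefore cannot be told apart here. RNA came from whole liver, so fewer cells of a type and less RNA per cell cannot be told apart either.

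*Esr1* encodes estrogen receptor alpha, a nuclear receptor that binds DNA when it binds estradiol and that is present in hepatocytes as well as in the hypothalamus and pituitary. Sex steroids act on the liver directly and through the pulses of pituitary growth hormone, which activate STAT5B in hepatocytes and set most of the sex-biased expression of the mouse liver, including that of the major urinary proteins and many cytochrome P450s. The liver also makes and burns fatty acids, under SREBP1C and PPARA respectively, and secretes complement, serpins and acute phase proteins.

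The 10 hepatocyte markers summed to between 113400 and 124900 CPM (counts scaled to library size by TMM) in MKO and between 106700 and 108100 in MWT livers. The library totals ran from 27799061 counts in MKO1 to 78624766 in MKO4, and from 41195629 to 62050815 in MWT. Of 55573 genes in the table, 17655 passed the filter on low counts and were tested. *Esr1* (chr10:4611593-5005614, GRCm38) was at 16.1, 12.5, 8.22 and 10.5 CPM in MKO1 to MKO4, and at 25.04, 31.2 and 52.0 CPM in MWT1 to MWT3. The groups did not overlap, and the log2 fold change was -1.62 (SE 0.263, edgeR, BH-adjusted p = 0.00445, where BH is the Benjamini-Hochberg adjustment over all genes tested). The count covers all exons and so includes transcript outside the deleted exon.

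The RNA of 147 genes was higher and that of 103 genes lower in MKO than in MWT livers at an adjusted p under 0.05 in edgeR's quasi-likelihood test, which is 0.833% and 0.583% of the genes tested. Of these, 56 rose by at least 1.5 on the log2 scale (0.317% of genes tested) and 46 fell by at least as much (0.261%). MKO and MWT did not overlap for 249 of the 250 genes, against 15.9% of all genes tested, and 220 of the 250 are protein-coding. The median log2 fold change over all tested genes was -0.001. Genes of fatty acid oxidation and synthesis, cytochrome P450s and anion transporters were among those that rose, and major urinary proteins and complement genes among those that fell. The 7 male libraries fitted alone called 274 higher. These counts depended on single mice: without MWT3, 47 genes were higher and 53 lower, and without MKO1, MKO3, MWT1 or MWT2 between 66 and 78 were higher.

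**Figure D1:**
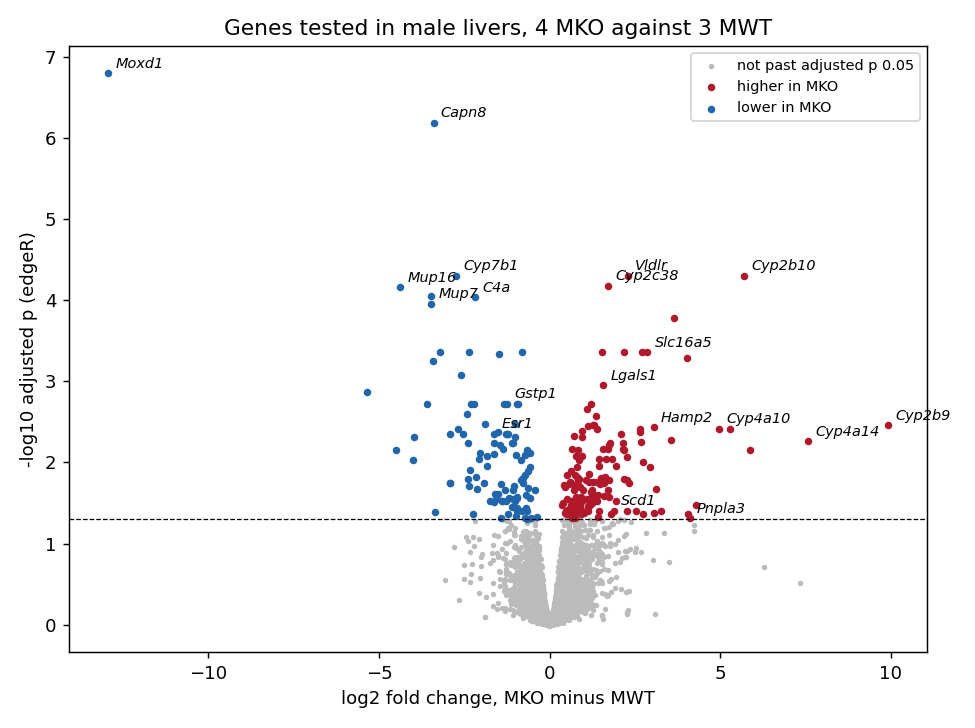
Log2 fold change of each tested gene (horizontal axis, MKO minus MWT) against -log10 of its edgeR adjusted p (vertical axis). The 147 higher genes are red, the 103 lower genes blue, other genes grey, and the dashed line marks the threshold. *Cyp2b9*, with 0 counts in MWT, and *Moxd1*, with 1 count in MKO, sit far out because their folds were fitted against almost no counts.

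Promoter sequences are shown for the 3 largest rises and the 3 largest falls, among genes past the test that average 1 or more in log2 CPM and whose groups do not overlap, that had one in the reference table, to let the start regions of genes that moved the same way be read side by side. They are RefSeq promoters on GRCm38.p6, 250 bases before to 50 bases after the start, 5′ to 3′ on the gene's strand. *Pnpla3* is at chr15:84167566-84167865 (+), *Acot3* at chr12:84051894-84052193 (+), *Gm32468* at chr10:93083986-93084285 (+), *Mup15* at chr4:61439655-61439954 (-), *Mup17* at chr4:61595783-61596082 (-) and *Mup18* at chr4:61674045-61674344 (-). Capitals mark the nuclear receptor half-site AGGTCA on either strand, which 16.3% of 32851 promoters of that length hold. The other motif searched on both strands, TTCNNNGAA, to which STAT5 binds, is in 8.3% of them and in none of these 6 windows. A match describes letters and not a bound site. *Cyp4a14*, *Cyp4a10* and *Mup16* had no entry.
Pnpla3: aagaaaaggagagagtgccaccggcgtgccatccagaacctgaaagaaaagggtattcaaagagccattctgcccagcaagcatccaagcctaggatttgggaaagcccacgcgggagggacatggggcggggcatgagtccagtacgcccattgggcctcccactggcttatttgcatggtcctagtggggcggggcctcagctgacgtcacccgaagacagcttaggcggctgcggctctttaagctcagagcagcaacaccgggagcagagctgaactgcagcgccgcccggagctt
Acot3: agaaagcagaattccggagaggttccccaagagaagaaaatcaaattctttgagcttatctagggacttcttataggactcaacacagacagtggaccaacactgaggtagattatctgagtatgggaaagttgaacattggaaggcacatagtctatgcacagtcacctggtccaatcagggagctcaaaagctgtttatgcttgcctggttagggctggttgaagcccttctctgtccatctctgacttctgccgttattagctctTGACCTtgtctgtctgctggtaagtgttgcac
Gm32468: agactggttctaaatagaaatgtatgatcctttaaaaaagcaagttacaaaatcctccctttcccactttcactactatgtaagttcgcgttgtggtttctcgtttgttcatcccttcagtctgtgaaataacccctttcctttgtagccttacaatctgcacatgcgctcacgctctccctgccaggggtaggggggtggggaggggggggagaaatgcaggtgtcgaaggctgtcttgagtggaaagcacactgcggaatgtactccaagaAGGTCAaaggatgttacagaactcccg
Mup15: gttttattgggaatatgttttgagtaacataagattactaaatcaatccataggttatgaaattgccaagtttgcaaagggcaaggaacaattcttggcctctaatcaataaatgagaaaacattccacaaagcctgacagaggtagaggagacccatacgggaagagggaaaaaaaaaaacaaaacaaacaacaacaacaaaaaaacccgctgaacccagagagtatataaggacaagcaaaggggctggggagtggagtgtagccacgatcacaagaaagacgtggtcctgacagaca
Mup17: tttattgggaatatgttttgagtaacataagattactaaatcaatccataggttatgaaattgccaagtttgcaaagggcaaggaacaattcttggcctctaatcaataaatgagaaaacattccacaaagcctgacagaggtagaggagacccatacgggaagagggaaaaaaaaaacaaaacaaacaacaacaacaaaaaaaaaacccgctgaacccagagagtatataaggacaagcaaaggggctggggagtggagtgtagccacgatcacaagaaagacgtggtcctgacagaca
Mup18: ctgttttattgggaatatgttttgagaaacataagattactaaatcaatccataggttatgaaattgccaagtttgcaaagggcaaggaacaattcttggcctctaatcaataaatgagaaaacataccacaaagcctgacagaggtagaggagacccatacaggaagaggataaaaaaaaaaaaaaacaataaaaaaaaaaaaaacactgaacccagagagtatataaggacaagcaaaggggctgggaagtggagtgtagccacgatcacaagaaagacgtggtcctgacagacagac
The *Mup15* and *Mup17* windows share an unbroken run of 178 bases, and each shares one of 99 bases with *Mup18*. No pair among *Pnpla3*, *Acot3* and *Gm32468* shares a run longer than 8.

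Fatty acid omega-hydroxylases and peroxisomal genes were among the largest rises. *Cyp4a14*, a fatty acid omega-hydroxylase and a classic PPARA target, was at 59.6, 54.7, 267.0 and 86.6 CPM in MKO1 to MKO4 and at 0.716, 0.611 and 0.539 in MWT1 to MWT3. Every MKO liver was far above every MWT liver, and MKO3 was the highest. The log2 fold change was 7.57 (SE 1.28, edgeR, BH-adjusted p = 0.00551). *Cyp4a10*, its neighbour on chromosome 4 with the same activity, was at 97.5, 151.3, 196.6 and 122.1 CPM against 4.74, 2.005 and 6.60, a log2 fold change of 4.98 (SE 0.793, edgeR, BH-adjusted p = 0.00384). *Acot3*, a peroxisomal acyl-CoA thioesterase, was at 19.3, 16.4, 11.4 and 11.1 CPM against 0.963, 0.293 and 2.22, a log2 fold change of 3.56 (edgeR, BH-adjusted p = 0.00528). *Acaa1b*, a peroxisomal thiolase, was at 1452, 1280, 2175 and 1431 CPM against 648.6, 494.6 and 451.4, a log2 fold change of 1.58 (edgeR, BH-adjusted p = 0.00678). In wild-type females *Cyp4a14*, *Cyp4a10* and *Acot3* averaged 222, 218 and 86.1 CPM, above the MKO means of 117, 142 and 14.6. The first and second varied widely there, with standard deviations of 307 and 233. *Acaa1b* averaged 651 CPM in wild-type females, below its MKO mean of 1585.

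Of 45 tested genes of fatty acid oxidation and PPARA targets, 10 rose and 0 fell, with a median log2 fold change of 0.38. The other 6 that rose are *Pdk4*, *Ehhadh*, *Acot4*, *Acot2*, *Vnn1* and *Cd36*, with log2 fold changes between 1.06 and 1.94. *Ehhadh* is the peroxisomal bifunctional enzyme, *Cd36* takes up fatty acids, and *Vnn1* is a pantetheinase. In *Vnn1* MKO3 was again the highest, at 96.1 CPM, beside 42.3, 35.9 and 32.7 in the other MKO livers and 13.2, 10.7 and 16.6 in MWT. Wild-type females averaged 312, 53.3 and 38.2 CPM for *Ehhadh*, *Vnn1* and *Cd36*, beside MKO means of 401, 51.8 and 66.5. Among the genes not past the test were *Cpt1a*, the gate of mitochondrial import (log2 fold change 0.04, edgeR, BH-adjusted p = 0.975), and *Acadvl* of mitochondrial beta-oxidation (0.08, edgeR, BH-adjusted p = 0.905). *Ppara* itself was at 285, 234, 286 and 257 CPM against 226, 214 and 268, a log2 fold change of 0.17 (SE 0.173, edgeR, BH-adjusted p = 0.783). Without 1 mouse the list's count lay between 4 (without MWT3) and 11, and it was 5 or 6 without MKO1, MKO3, MWT1 or MWT2.

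Of 31 tested genes of lipogenesis, 5 rose and 0 fell, with a median log2 fold change of 0.58. *Scd1*, the stearoyl-CoA desaturase that makes monounsaturated fatty acids, was at 21980, 12550, 20330 and 13890 CPM against 4591, 4792 and 4565. The MWT livers lay close together while the MKO livers spread widely, and the log2 fold change was 1.89 (SE 0.434, edgeR, BH-adjusted p = 0.0396). *Elovl5*, a fatty acid elongase, was at 1071, 866.0, 1219 and 905.1 CPM against 299.3, 331.4 and 279.7, a log2 fold change of 1.74 (edgeR, BH-adjusted p = 0.00608). *Me1*, malic enzyme, which supplies NADPH, was at 494, 287, 554 and 514 CPM against 148, 151 and 144, a log2 fold change of 1.65 (edgeR, BH-adjusted p = 0.00904). *Gpam*, which starts triglyceride synthesis, had a log2 fold change of 1.42 (edgeR, BH-adjusted p = 0.0252).

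*Pnpla3*, a lipase of lipid droplets, was at 35.8, 5.995, 8.45 and 7.02 CPM against 0.790, 1.002 and 0.682. MKO1 stood well above the rest, and the log2 fold change was 4.11 (SE 0.982, edgeR, BH-adjusted p = 0.0486). *Fasn*, fatty acid synthase, was at 6158, 2604, 3249 and 3928 CPM against 1255, 1969 and 896.2. Its log2 fold change of 1.54 was not past the test (edgeR, BH-adjusted p = 0.135), though it was in the 7 male libraries alone and without a filter on low counts. Nor were those of *Acly* (1.40, edgeR, BH-adjusted p = 0.0695), *Acaca* (0.85, 0.126) and *Srebf1*, which encodes SREBP1 (0.65, 0.213). Leaving out 1 mouse left between 1 (without MWT1 or MWT3) and 5 of the 5 called, and 2 without MKO1, MKO3, MKO4 or MWT2. *Scd1*, *Gpam* and *Pnpla3* each lost the call without MKO1, MKO3, MKO4 or any single MWT mouse. *Pnpla3* also lost it with a filter of 1 CPM in 3 libraries, and *Gpam* in the replicate block. Fitting the 7 male libraries alone called 16.

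Genes of sterol synthesis (0 of 25), glucose and glycogen metabolism (0 of 32), and the circadian clock (0 of 23) gave no calls by edgeR. At an unadjusted p under 0.05 they held 4, 8 and 4 genes, and DESeq2 called 0, 1 and 0. The share of all tested genes at that unadjusted threshold is not reported here. Such counts, here and below, therefore do not show whether a list stood out. Over all genes tested, edgeR called 0.833% higher and 0.583% lower. Lists of these sizes can hold 0 calls at those rates. *Cyp7a1*, the rate-limiting enzyme of bile acid synthesis, was at 347, 402, 126 and 418 CPM against 221, 364 and 418. MKO3 was the lowest of the 7 livers, and the groups overlapped. *Cyp7b1*, the oxysterol 7alpha-hydroxylase that also clears androgen metabolites, was the sole called gene of the 36 tested of bile acid synthesis and transport. It was at 86.0, 152.0, 83.7 and 111.0 CPM against 707.2, 745.6 and 712.9.

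**Figure D2:**
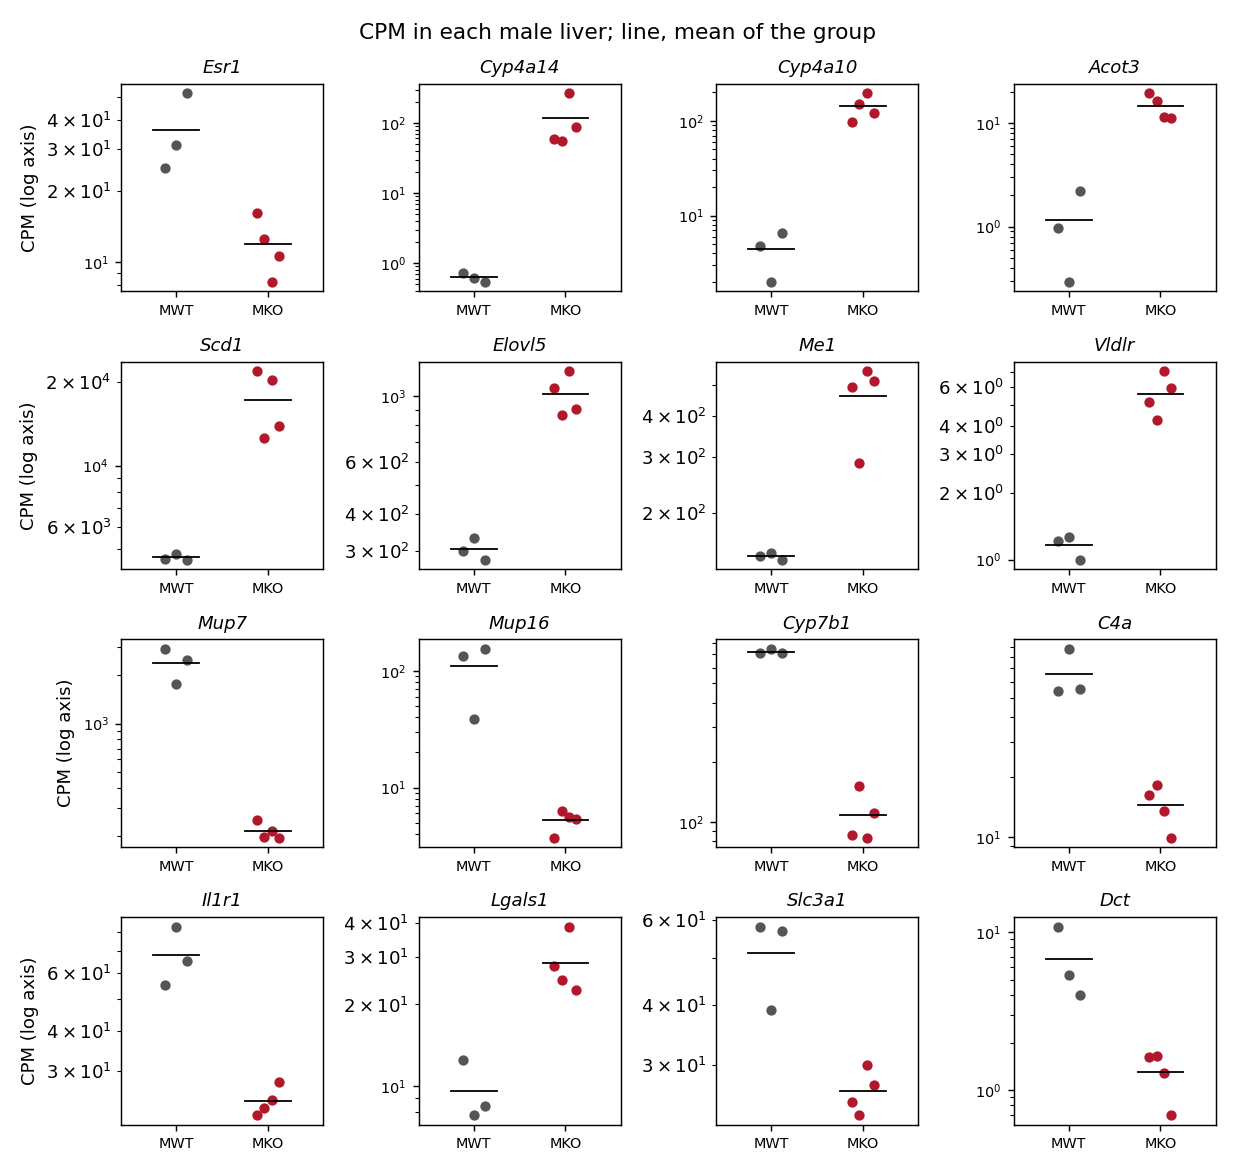
CPM on a log axis of 16 named genes in each of the 3 MWT (grey) and 4 MKO livers (red), with a line at the mean of the group. In all 16 the groups do not overlap, and *Cyp4a14* shows the widest gap, from 0.716 in the highest MWT liver to 54.7 in the lowest MKO liver.

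Among lipoprotein genes 1 of 28 rose. This was *Pltp*, phospholipid transfer protein, at 138, 89.97, 151 and 130 CPM against 22.99, 37.7 and 22.8, a log2 fold change of 2.19 (SE 0.433, edgeR, BH-adjusted p = 0.0160). The lipid droplet gene *Cidec* had a log2 fold change of 2.18 (edgeR, BH-adjusted p = 0.0507), just outside the threshold. *Osbpl3*, an oxysterol-binding protein, was at 13.8, 6.55, 21.7 and 7.41 CPM against 1.75, 2.49 and 2.997, a log2 fold change of 2.34 (edgeR, BH-adjusted p = 0.0180). It was not past the test without MKO1, MKO3 or any single MWT mouse, and *Pltp* was not without MWT1 or MWT3.

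Major urinary proteins, lipocalins that the male liver secretes for scent marking, fell as a family: 0 of 20 tested members rose and 17 fell, with a median log2 fold change of -2.46. *Mup16* was at 3.72, 6.28, 5.54 and 5.37 CPM against 135, 38.4 and 155. All MKO livers were under all MWT livers, and MWT2 was the lowest of the MWT livers (log2 fold change -4.38, SE 0.443, edgeR, BH-adjusted p = 6.94e-05). *Mup7* was at 252.3, 197.8, 215.9 and 196.8 CPM against 2912, 1767 and 2494, a log2 fold change of -3.47 (SE 0.373, edgeR, BH-adjusted p = 0.000111). *Mup20*, known as darcin, was at 745.2, 1115, 629.3 and 1037 CPM against 3090, 2577 and 1944, a log2 fold change of -1.52 (edgeR, BH-adjusted p = 0.00424). *Mup15*, *Mup17*, *Mup18*, *Mup1* and *Mup11* fell by 4.49, 3.99, 3.60, 3.48 and 3.23 on the log2 scale. *Mup9*, at under 1 CPM in all MKO livers and at 25.3, 1.22 and 30.1 CPM in MWT1 to MWT3, had the lowest log2 fold change of the family, at -5.36. *Mup6*, *Mup3* and *Mup2* were not past the test, with log2 fold changes of -0.60, -0.45 and -0.30.

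Single *Mup* genes are uncertain, since the annotated transcripts of a *Mup* gene shared between 0% and 100% (median 74.5%) of their 100-base stretches with other *Mup* genes, and how reads with several matches were counted is not stated. *Mup20* shared 38.8% and *Mup3* 2.23%. Without 1 mouse between 14 and 17 of the 17 were called.

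Of 22 tested genes of androgen and steroid metabolism 0 rose and 3 fell: *Cyp7b1*, *Hsd3b5* and *Hsd17b2*. *Hsd17b2*, which inactivates estradiol and testosterone, was at 138, 142, 124 and 113 CPM against 225, 184 and 210, a log2 fold change of -0.68 (SE 0.119, edgeR, BH-adjusted p = 0.00701). *Hsd3b5* was at 205, 248, 118 and 185 CPM against 422, 460 and 440. Its log2 fold change of -1.22 (edgeR, BH-adjusted p = 0.0428) was not past the test without MKO1, MKO3, MKO4 or any single MWT mouse. Among 21 steroid and hormone receptors *Esr1* alone was called.

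In the growth hormone to STAT5 axis 1 of 26 tested genes rose and 0 fell, with a median log2 fold change of -0.05. *Ghr*, the growth hormone receptor, was at 662, 694, 667 and 683 CPM against 741, 725 and 702, a log2 fold change of -0.10 (SE 0.122, edgeR, BH-adjusted p = 0.838). *Stat5b* was at 53.5, 51.4, 85.0 and 69.7 CPM against 76.2, 63.9 and 58.1. *Bcl6*, a repressor in male liver, ranged from 8.56 to 84.8 CPM in MKO and from 18.1 to 77.1 in MWT, so the spread within groups was wider than any difference between them. The gene called was *Tox*, a transcription factor (log2 fold change 0.96, edgeR, BH-adjusted p = 0.0397), and in MWT2 it was at 4.42 CPM, above MKO2 at 4.06. It was not past the test without MKO1, MKO3, MKO4, MWT1 or MWT3. *Hnf4a*, a master regulator of hepatocytes, had a log2 fold change of -0.34 (edgeR, BH-adjusted p = 0.199), and 0 of 26 hepatocyte transcription factors were called by edgeR (1 at an unadjusted p under 0.05, 0 by DESeq2). Of the genes that mark liver zones, 0 of 19 pericentral ones were called by edgeR (2 at an unadjusted p under 0.05, 0 by DESeq2), and of 15 periportal ones *Cdh1*, E-cadherin, fell by 0.65 on the log2 scale, which was past the test in 1 of the 7 fits without 1 mouse, that without MWT2.

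Cytochrome P450s of families 1 to 3 held 6 rises and 1 fall among 50 tested, with a median log2 fold change of 0.06, which stays the same with *Cyp2b9* at its bound. *Cyp2b10*, the main target of the xenobiotic receptor CAR, was at 2.17, 2.24, 4.37 and 1.82 CPM against 0.123, 0.0244 and 0.0159, a log2 fold change of 5.69 (SE 0.550, edgeR, BH-adjusted p = 4.98e-05). *Cyp2b9* had 494 counts over the MKO livers and 0 over the MWT livers, and against a floor of 3 counts over the group its mean CPM was at least 122-fold higher. *Cyp2a4*, a steroid 15alpha-hydroxylase, was at 16.1, 2.22, 9.60 and 4.35 CPM against 0.296, 0.147 and 0.174, a log2 fold change of 5.28 (edgeR, BH-adjusted p = 0.00384). *Cyp2c38* was at 47.9, 31.8, 59.5 and 54.0 CPM against 12.6, 16.7 and 15.2. *Cyp2c39* and *Cyp2c55* rose too and *Cyp2d11* fell, with log2 fold changes of 1.38, 1.17 and -1.04. In wild-type females *Cyp2b10*, *Cyp2b9*, *Cyp2a4* and *Cyp2c38* averaged 10.7, 565, 1052 and 132 CPM, above the means of both male groups. Of the xenobiotic sensors and oxidative stress genes, 1 of 26 was called, *Cbr1*, a carbonyl reductase, with a log2 fold change of 0.50, lost without MWT1.

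Conjugating enzymes and transporters held between 0 and 4 calls a family. *Slc22a26* and *Slc22a27*, organic anion transporters that lie side by side on chromosome 19, rose from between 0.0741 and 0.333 CPM in MWT to between 1.83 and 4.58 in MKO. Their log2 fold changes were 3.65 (edgeR, BH-adjusted p = 0.000168) and 4.03 (edgeR, BH-adjusted p = 0.000524), and they were the 2 calls among 22 tested Slco and Slc22 genes. In wild-type females they averaged 226 and 32.7 CPM. Of 22 glutathione S-transferases 2 rose (*Mgst3*, 1.27, and *Gstt3*, 1.12) and 2 fell (*Gstp1*, -1.25, and *Gstp2*, -1.56). *Gstt3* was not past the test without MKO1, MKO3, MKO4, MWT2 or MWT3, and *Gstp2* not without MKO1, MKO2, MKO4, MWT1 or MWT3. *Gstp1* and *Gstp2* shared 25.1% and 46.9% of their 100-base stretches. *Gstp1* was at 591.4, 620.7, 550.0 and 756.3 CPM against 1734, 1438 and 1334. *Ugt1a5*, whose locus overlaps other *Ugt1a* genes, was the 1 rise among 19 glucuronosyltransferases (1.46), and *Sult5a1* the 1 fall among 12 sulfotransferases (-1.84). Of 16 carboxylesterases *Ces1d* (0.67) and *Ces1e* (0.77) rose and *Ces4a* (-1.83) fell. *Aldh3a2*, which oxidizes fatty aldehydes, rose by 1.08, and of 4 tested Acsm genes *Acsm2* fell by 2.07. Calls were lost for *Ces1e* without MKO1, MKO3, MKO4 or any single MWT mouse, for *Aldh3a2* without MKO1, MKO3, MWT2 or MWT3, for *Ugt1a5* and *Ces4a* without MWT1 or MWT3, and for *Acsm2* without MWT3. Of 6 flavin monooxygenases 0 were called by edgeR, with 3 at an unadjusted p under 0.05 and 0 called by DESeq2.

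**Figure D3:**
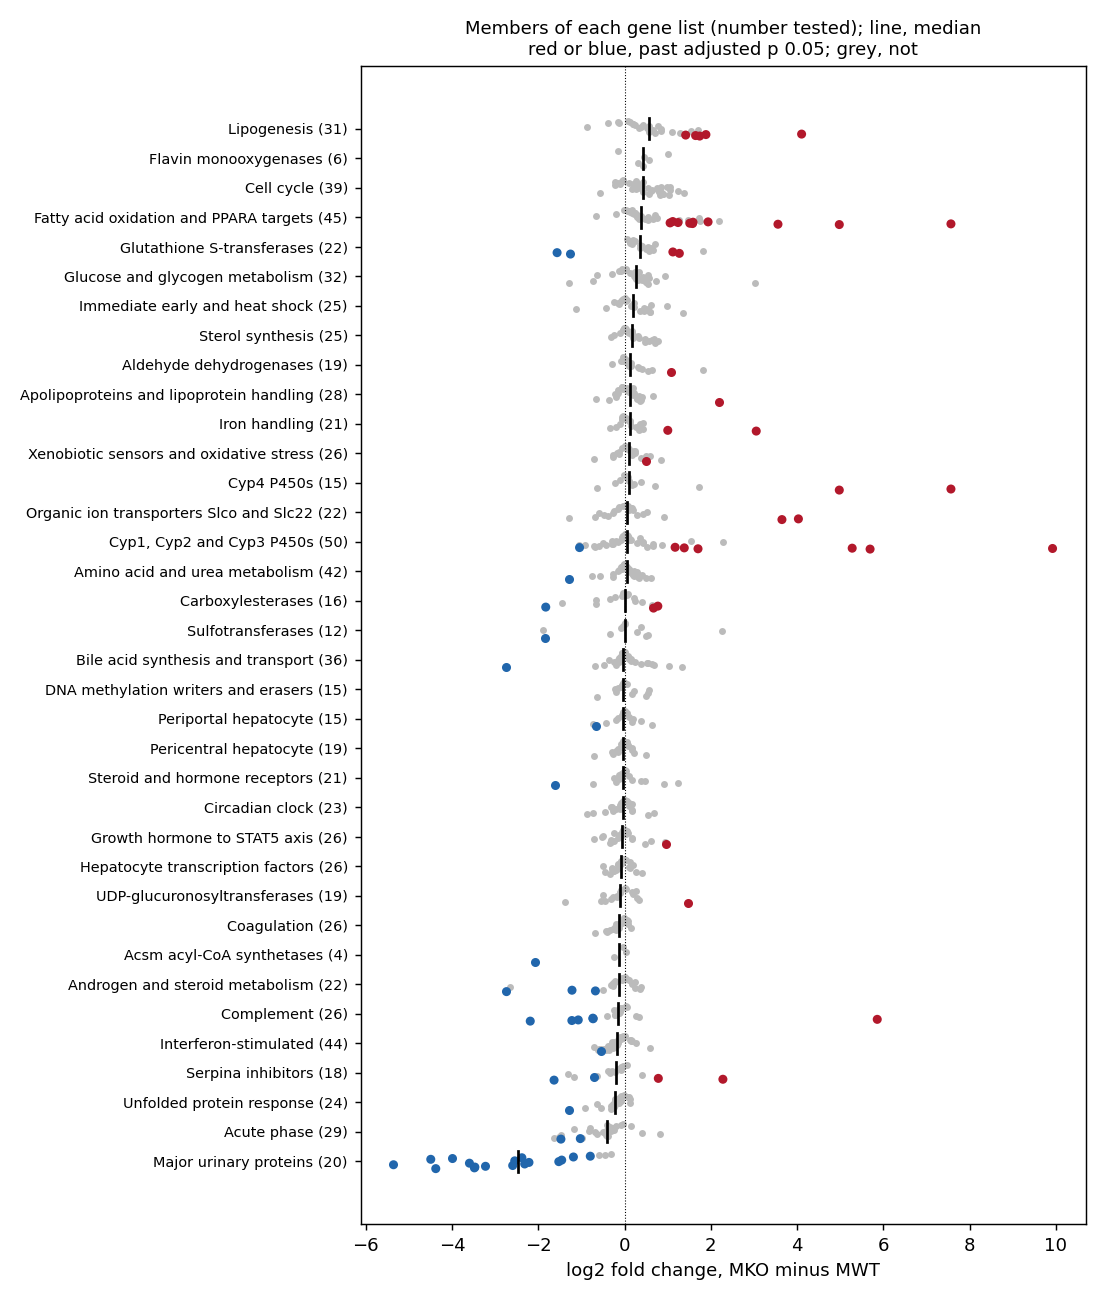
Log2 fold change, MKO minus MWT, of every tested member of the 36 pathway and family lists, with the number tested in parentheses and a line at the list's median. Red and blue points are past the adjusted p threshold, grey points not. The major urinary proteins lie to the left with a median of -2.46, and lipogenesis has the highest median, at 0.58.

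Secreted defence proteins fell in part. Of 26 tested complement genes, 5 fell and 1 rose. Those that fell are *C4a* and genes of the membrane attack complex: *C6*, *C9*, *Hc* (which encodes C5) and *C8a*. *C4a* was at 16.3, 18.2, 13.5 and 9.93 CPM against 53.7, 87.8 and 55.4, a log2 fold change of -2.19 (SE 0.230, edgeR, BH-adjusted p = 9.17e-05). It shared 13.1% of its 100-base stretches with other genes whose symbols begin with C4. *C6* was at 146, 226, 136 and 167 CPM against 409, 423 and 348, a log2 fold change of -1.22 (edgeR, BH-adjusted p = 0.00447). *C9*, which forms the pore, was at 326, 478, 350 and 374 CPM against 963, 672 and 777, a log2 fold change of -1.07 (edgeR, BH-adjusted p = 0.00572). *Hc* and *C8a* each fell by 0.73 on the log2 scale. *C3*, the hub of the cascade, had a log2 fold change of -0.10 (edgeR, BH-adjusted p = 0.923), and *C8b* one of -0.72 (edgeR, BH-adjusted p = 0.145). Without MWT3 3 of the 5 were called, as *Hc* and *C8a* lost the call. *C8a* also lost it without MKO1 or MKO3.

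The gene that rose was *Cfd*, adipsin, at 1.95, 1.10, 9.32 and 0.891 CPM against 0.0247, 0.0733 and 0.0634 (log2 fold change 5.86, SE 1.03, edgeR, BH-adjusted p = 0.00701). *Cfd* is also 1 of 5 adipocyte markers. Of the other 4 adipocyte markers 0 passed the filter, *Lep* was at 0 in all 7 livers, and the 5 together summed to 9.39 CPM in MKO3, of which *Cfd* made up 9.32. *Cfd* was not past the test without MWT3.

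Of 29 acute phase genes 0 rose and 2 fell, with a median log2 fold change of -0.42. *Il1r1*, the receptor for interleukin-1, was at 21.97, 23.2, 24.5 and 27.9 CPM against 55.2, 83.2 and 65.4, a log2 fold change of -1.48 (SE 0.185, edgeR, BH-adjusted p = 0.000465), and held without any single mouse. *Saa4*, a constitutive serum amyloid A, had a log2 fold change of -1.03 (edgeR, BH-adjusted p = 0.00491). Of 18 Serpina genes 2 rose and 2 fell. *Serpina1e*, an alpha-1-antitrypsin, was at 2294, 3332, 1685 and 3422 CPM against 7521, 8369 and 9119, and shared 14.4% of its 100-base stretches with other Serpina genes. *Serpina7*, thyroxine-binding globulin, was at 85.7, 78.8, 111.0 and 123.0 CPM against 16.7, 22.1 and 22.9, a log2 fold change of 2.28 (edgeR, BH-adjusted p = 0.00859). *Serpina6*, corticosteroid-binding globulin, rose by 0.78 and *Serpina3c* fell by 0.70 on the log2 scale. Neither was past the test without MKO1, MKO3, MKO4 or any single MWT mouse, and without MWT1 or MWT3 0 Serpina rises were called, *Serpina7* included. Of 26 coagulation genes edgeR called 0 (6 at an unadjusted p under 0.05, 3 by DESeq2), and of 44 interferon-stimulated genes *Ifi27* alone fell, by 0.54. That was not past the test without MKO1, MKO3, MKO4 or any single MWT mouse.

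Of 21 iron-handling genes 2 rose. *Hamp2*, a paralogue of hepcidin, was at 44.2, 40.5, 63.2 and 35.7 CPM against 6.92, 5.89 and 3.88, a log2 fold change of 3.05 (SE 0.481, edgeR, BH-adjusted p = 0.00369), and *Id1*, a BMP target, had one of 1.002 (edgeR, BH-adjusted p = 0.0421). Wild-type females averaged 149.5 CPM for *Hamp2* and 3.45 for *Id1*. *Id1* was not past the test without MKO1, MKO3 or any single MWT mouse, nor in the 7 male libraries alone. *Scara5*, a ferritin receptor, fell: 2.57, 1.70, 0.871 and 1.17 CPM against 7.38, 24.9 and 16.3 (log2 fold change -3.42, edgeR, BH-adjusted p = 0.000569). *Asns*, asparagine synthetase, was the one call among both 42 amino acid and urea genes and 24 unfolded protein response genes, at -1.29, and was not past the test without MKO1, MKO3, MWT2 or MWT3. Cell cycle genes (0 of 39), immediate early and heat shock genes (0 of 25) and DNA methylation writers and erasers (0 of 15) held no edgeR call. At an unadjusted p under 0.05 they held 1, 3 and 1 genes, and DESeq2 called 0, 1 and 1. The cell cycle median was 0.43.

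Other genes among the largest rises encode transport proteins and receptors. *Slc16a5*, a monocarboxylate transporter family member, was at 13.8, 15.6, 9.96 and 8.64 CPM against 1.51, 0.856 and 2.41 (log2 fold change 2.87, SE 0.345, edgeR, BH-adjusted p = 0.000437). *Ntrk2*, the receptor of brain-derived neurotrophic factor, was at 3.29, 4.59, 6.69 and 5.52 CPM against 0.865, 0.807 and 0.650, a log2 fold change of 2.72. *Nipal1*, a magnesium transporter, had a log2 fold change of 2.65, and the uncharacterized *Gm32468* one of 3.25. Wild-type females averaged 33.3, 4.53, 31.1 and 0.165 CPM for *Slc16a5*, *Ntrk2*, *Nipal1* and *Gm32468*. *Gm32468* was not past the test without MKO1, MKO3, MKO4 or any single MWT mouse. Of the largest falls, *Capn8*, a calpain protease, was at 0.651, 0.933, 0.766 and 0.878 CPM against 11.7, 5.21 and 9.01. The MKO livers lay close together, all under all MWT livers, and the log2 fold change was -3.40 (SE 0.230, edgeR, BH-adjusted p = 6.53e-07).

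Genes without a sex difference were examined apart, since the comparison was to include them. Between wild-type females and MWT, 4.87% of tested genes differed at an adjusted p under 0.05, and 14703 genes did not, with a log2 difference under 0.5. The phrase without a sex difference means only that a gene missed these limits. It does not show that the sexes are equal. Of these, 69 were called between MKO and MWT (0.47%), 48 higher and 21 lower. Both comparisons use the same MWT mice. *Lgals1*, galectin-1, was at 27.8, 24.7, 38.8 and 22.6 CPM against 12.5, 7.77 and 8.42, a log2 fold change of 1.58 (SE 0.214, edgeR, BH-adjusted p = 0.00111). *Postn*, periostin of the extracellular matrix, was at 26.5, 26.4, 23.4 and 24.5 CPM against 11.9, 17.8 and 14.2, a log2 fold change of 0.78 (edgeR, BH-adjusted p = 0.00838). The 12 stellate cell and fibroblast markers had 0 calls and summed to between 680.3 and 862.6 CPM in MKO and 572.7 and 724.8 in MWT, with overlap, and their part in these rises was not tested. *Robo1*, a guidance receptor, had a log2 fold change of 0.87, and *Acaa1b* and *Me1*, given above, are also among the 6 rises of smallest p. *Postn*, *Robo1* and *Me1* were not past the test without MWT1 or MWT3, nor *Acaa1b* without MWT3.

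Among the falls without a sex difference, *Slc3a1*, the heavy chain of a cystine transporter, was at 25.1, 23.5, 29.9 and 27.3 CPM against 58.0, 38.9 and 56.8 (log2 fold change -0.95, SE 0.138, edgeR, BH-adjusted p = 0.00189). *Dct*, dopachrome tautomerase, was at 1.63, 1.63, 1.29 and 0.692 CPM against 10.8, 5.35 and 3.996, a log2 fold change of -2.39 (edgeR, BH-adjusted p = 0.00585). *Hsd17b2*, *Mfsd6*, *Epb41l4b* and the elastase *Cela1* fell by 0.68, 0.64, 0.58 and 0.99 on the log2 scale. *Mfsd6* and *Epb41l4b* were not past the test without MWT3, nor *Cela1* without MWT1.

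Markers of other cells were measured beside these results. The Kupffer cell, endothelial, stellate, T, B and NK cell, neutrophil and erythroid lists had 0 edgeR calls (1, 1, 3, 1, 0 and 0 genes at an unadjusted p under 0.05, and 0 by DESeq2 in each), and their sums overlapped between MKO and MWT, as did that of the exocrine pancreas list, with 6 of its 10 genes at 0 in all livers. The 10 hepatocyte markers had 0 edgeR calls (3 at an unadjusted p under 0.05, 2 by DESeq2), and their sum did not overlap (exact permutation p = 0.0571 two-sided, the smallest that 4 against 3 mice allow; 0.286 after adjustment over the 10 lists). *Epcam* and *Krt19*, of 7 cholangiocyte markers, had log2 fold changes of 0.95 and 1.23, with the sum overlapping (46.3 to 65.6 CPM against 38.1 to 62.4). Of the 2, 0 or 1 was called without any single mouse.

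**Figure D4:**
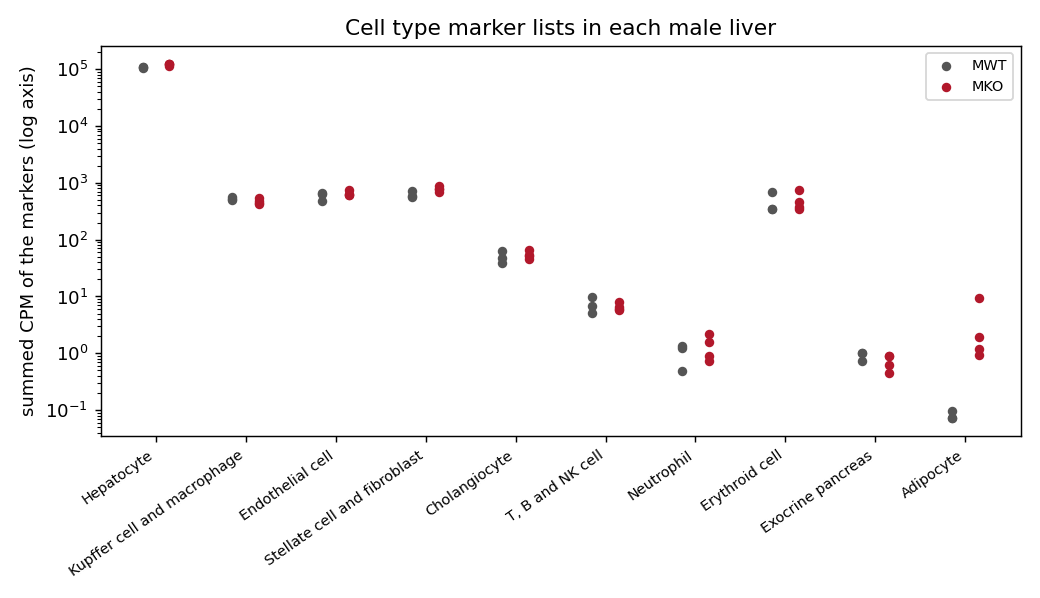
Summed CPM (log axis) of 10 cell type marker lists in each MWT (grey) and MKO (red) liver. Sums overlap between the groups for all lists but hepatocyte and adipocyte, and the adipocyte sum lies between 0.918 and 9.39 CPM in MKO, nearly all of it *Cfd*.

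Whether these effects differ from those of the same deletion in females was tested as an interaction, which 343 genes passed (1.94% of genes tested). In females 3.14% of genes were higher and 2.57% lower in ESR1KO livers. Among the 147 rises in MKO, 62 had an interaction past the test, 27 were also called higher and 23 called lower in females, and the median log2 fold change was 1.24 in males and 0.13 in females. Among the 103 falls, 57 had such an interaction, 14 were also lower and 28 higher in females, and the medians were -1.41 and 0.22. These genes were chosen by the male contrast, which is also part of the interaction. That choice favours large male estimates, so it enlarges the male medians and the interaction counts. By how much was not tested. *Mup7* fell by 3.47 in males, and had a log2 fold change of 5.20 in females (interaction edgeR, BH-adjusted p = 1.78e-07). It averaged 2391 CPM in MWT and 4.61 in wild-type females, against 216 in MKO and 168 in ESR1KO females. *Cyp4a14* had a log2 fold change of -0.42 in females (interaction 0.00523), and *C6* one of 2.26 (interaction 1.87e-06). *Cyp4a14* varied widely in wild-type females, with a mean of 222 CPM and a standard deviation of 307, so its female estimate is uncertain. *C6* averaged 23.7 CPM in wild-type females and 393.5 in MWT.

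The 5 lipogenesis genes gave no interaction past the test, with female log2 fold changes of 0.48 for *Elovl5*, 0.98 for *Me1*, 0.65 for *Gpam*, 1.05 for *Scd1* and 0.11 for *Pnpla3*. *Lgals1* (1.44 in females), *Serpina7* (2.92) and *Sult5a1* (-2.15) had female estimates close to the male ones, with interaction adjusted p of 0.858, 0.606 and 0.792. A p that misses the threshold does not show that the effects are equal.

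**Figure D5:**
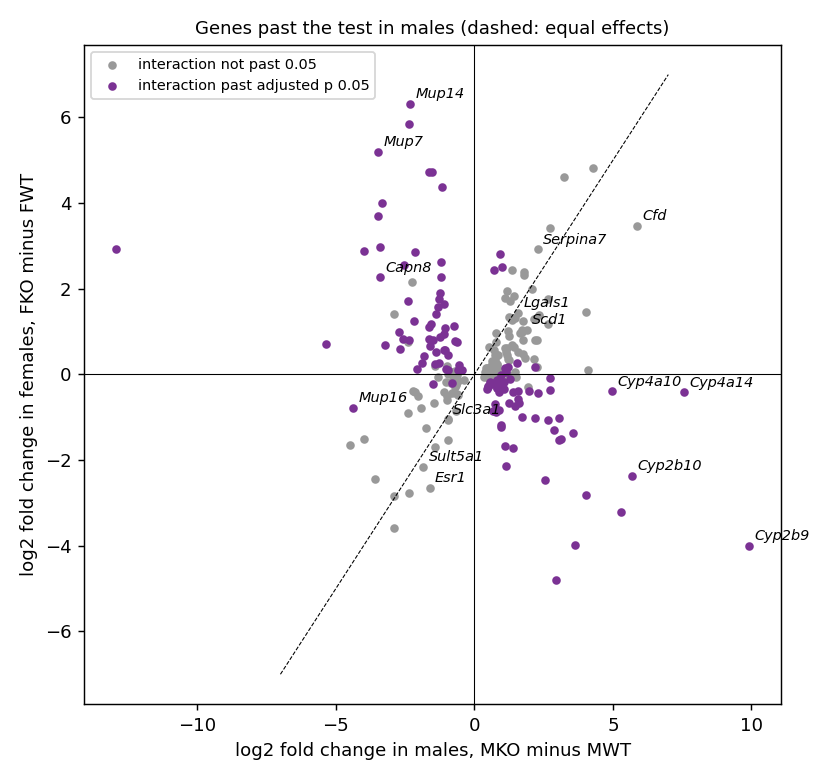
Log2 fold change in males (horizontal axis, MKO minus MWT) against that in females (vertical axis, FKO minus FWT) for the 250 genes called in males, with a dashed line where both are equal. The 119 genes with an interaction past the test (purple) include *Mup7*, *Cyp4a14* and *Cyp2b10*, and grey points, such as *Esr1*, *Lgals1* and *Scd1*, are those without.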

How the data were processed

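Counts per gene were deposited by the authors without normalization. They made these from paired-end reads of libraries depleted of ribosomal RNA, trimmed with Trimmomatic 0.36, aligned to GRCm38 with STAR and counted with HTSeq (0.6.0 in the submitters' processing notes). Strand setting, annotation release and treatment of reads with several matches are not given in the sources used here. Low samples had a second sequencing run, and the sources used here do not name them. Every column of the table was used. The counts were analysed with edgeR 4.0.16 in R 4.3.3. Genes were kept by filterByExpr (17655 of 55573), scaled by TMM and fitted over all 15 libraries with 1 mean per group (4 groups) by quasi-likelihood, with Benjamini-Hochberg adjustment over all genes tested. The model was tested on simulated data. These gave every gene the same spread and no sex difference, so they cannot show how the model performs on the present data. CPM values use TMM factors. Library totals differ by the values given, and intervals or floors from counts cover counting error only. Replicate libraries differed beyond sampling noise. Each mouse gave 1 library, so p values set a group difference against the spread between mice, estimated over all 15 libraries.

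Named genes were *Esr1*, the 10 largest rises and falls among genes past the test that average 1 or more in log2 CPM and whose groups do not overlap, the 6 rises and 6 falls of smallest p without a sex difference, up to 4 called genes of smallest p per list, and a set of defining genes. Some genes that this rule names are not reported here. Those named beyond this rule were chosen after their values were seen, among them *Mup9*, *Mup20*, *C8a*, *Hc*, *Ehhadh*, *Vnn1*, *Cd36*, *Cpt1a* and *Cidec*. The members, the 46 gene lists and the rules were chosen with earlier results of these data known. The alternatives were DESeq2's size factors, DESeq2 1.42.0, 2 other filters on low counts, the 7 male libraries alone, a replicate block, autosomes alone, and each mouse left out.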

Additional observations from a re-analysis of the deposited data

Results flagged for a closer look

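The effect of the deletion differed between males and females past the interaction test (edgeR adjusted p under 0.05) for 50 of the 97 named genes examined. Over all genes tested the share was 1.94%. Most named genes were chosen for being called in the male contrast, which is part of the interaction, so that choice raises their count. Values are the log2 fold change in males minus that in females. It was more positive in males for *Cyp4a14* (7.98), *Cyp4a10* (5.37), *Acot3* (4.93), *Hamp2* (4.58), *Slc16a5* (4.16), *Ntrk2* (3.08), *Nipal1* (3.72), *Tox* (2.20) and *Cbr1* (0.80). The same held for *Cyp2b10* (8.06), *Cyp2c38* (2.69), *Cyp2b9* (13.92), *Cyp2a4* (8.497), *Mgst3* (1.39), *Gstt3* (2.80), *Ugt1a5* (2.20), *Slc22a26* (7.64) and *Slc22a27* (6.85). The same held for *Aldh3a2* (1.42), *Serpina6* (1.65), *Epcam* (1.17), *Vldlr* (2.72), *Ehhadh* (1.23), *Abcb1a* (2.14) and *Hao2* (7.73). It was more negative in males for *Mup16* (-3.60), *Mup1* (-7.18), *Mup7* (-8.67), *Scara5* (-6.40), *Capn8* (-5.67), *Mup11* (-3.91), *Cyp7b1* (-3.72), *Hsd3b5* (-3.85) and *Asns* (-3.05). The same held for *Il1r1* (-1.26), *C4a* (-3.43), *C6* (-3.49), *C9* (-2.16), *Ifi27* (-0.76), *Gstp1* (-3.15), *Gstp2* (-2.74), *Ces4a* (-2.26) and *Serpina1e* (-2.75). The same held for *Serpina3c* (-1.49), *Acsm2* (-2.20), *Mup20* (-6.26), *C8a* (-1.86), *Moxd1* (-15.86), *Obp2a* (-6.86) and *Sdr16c5* (-7.34). The values of *Cyp2b9* and *Moxd1* rest on groups with few or no counts and depend on the prior count. Some other sizes are uncertain for a like reason. *Obp2a* and *Sdr16c5* averaged 0.00764 and 0.00573 CPM in wild-type females, and *Cyp2b10* and *Hao2* had 7 and 10 counts over the MWT livers.

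One MKO mouse stood apart from the other 3 for 3 of 97 named genes examined in the same 4 MKO mice. Chance gives about 1 in 20 for a single test, and these tests share their mice and are not independent. MKO3 was farthest for *Aldh3a2*, with a gap of 0.905 of the range of log2 CPM, and for *Cyp7a1* (0.845). It was highest for *Aldh3a2* (604 CPM) and lowest for *Cyp7a1* (126 CPM). For *Moxd1* the gap was 1, the whole range, since MKO4 had the 1 count of the group.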

How the results depend on the processing

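*Esr1* was lower in MKO under every alternative run, from -1.82 to -1.26 without 1 mouse. Other tools and filters moved the counts: DESeq2 called 311 genes higher, 175 lower and 587 with an interaction; without a filter on low counts 229 were higher, 182 lower, and by at least 1.5 log2 90 and 74; the 7 male libraries alone gave 274 higher. Without 1 mouse, 47 to 168 were higher, 53 to 120 lower, 28 to 73 higher and 33 to 55 lower by at least 1.5, and 250 to 373 had an interaction. The cause was not tested. Same-numbered MKO and MWT mice did not deviate together (correlations -0.116, -0.056 and 0.028), no MKO mouse correlated best with the MWT mouse of its own number, and the replicate block gave 88 higher and 77 lower. Of genes never called, directions turned for *Stat5b* (-0.18 to 0.0896 without 1 mouse), *Cyp7a1* (-0.27 to 0.22, and 0.0635 in the block) and *Bcl6* (-0.59 to 0.97, and -0.33 in the block). No called gene named turned in sign. Genes with few counts, such as *Wif1* and *Sdr16c5*, are limited by depth.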

Other observations

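The genes below fall outside the lists and the naming rule and were chosen after their values were seen. *Vldlr*, which takes up triglyceride-rich lipoproteins, was at 5.17, 4.25, 7.11 and 5.93 CPM in MKO and at 1.21, 1.27 and 0.999 in MWT, a log2 fold change of 2.29 (SE 0.221, edgeR, BH-adjusted p = 4.98e-05). *Pparg*, a nuclear receptor that drives fat storage, was at 20.6, 24.4, 29.99 and 19.9 CPM against 9.24, 10.2 and 6.53, a log2 fold change of 1.46 (edgeR, BH-adjusted p = 0.0110), with 1.32 in females. It was not past the test without MWT3. *Abcb1a*, a drug efflux pump, had a log2 fold change of 0.95 (edgeR, BH-adjusted p = 0.00415), and *Hao2*, a hydroxyacid oxidase, one of 2.94 (edgeR, BH-adjusted p = 0.0113), from at most 0.0978 CPM in any MWT liver, lost without MWT1 or MWT3.

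*Moxd1*, a monooxygenase-like protein, had 1 count over the MKO livers and 8979 over the MWT livers, in which it was at 71.5, 22.7 and 81.7 CPM. *Obp2a*, an odorant-binding protein, had 15 counts against 157, and *Sdr16c5*, an epidermal retinol dehydrogenase, 6 against 46. *Wif1* and *Dkk4*, inhibitors of Wnt signalling, had 11 against 64 and 10 against 55 counts. *Sdr16c5*, *Wif1* and *Dkk4* were called, and lost the call without 6, 5 and 3 of the 7 mice left out singly. *Lifr*, the leukemia inhibitory factor receptor, was at 377, 640, 274 and 373 CPM against 802, 901 and 796, a log2 fold change of -1.002 (edgeR, BH-adjusted p = 0.0298), and was not past the test without MKO1, MKO3, MKO4 or any single MWT mouse. *Vim*, vimentin, and *Sparc*, a matrix protein, had log2 fold changes of 0.74 (edgeR, BH-adjusted p = 0.0482) and 0.67 (edgeR, BH-adjusted p = 0.0300). *Vim* was past the test in none of the 7 fits without 1 mouse, nor with DESeq2's size factors or the replicate block. *Sparc* was not past it without MKO1, MKO2, MKO3 or any single MWT mouse, nor in the replicate block.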
